A study of Drosophila melanogaster with 4 samples.

Results

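H3K23ac, histone H3 acetylated on lysine 23, was examined in the centromere-side ends of chromosome arms 2L, 3L and X and on the whole of chromosome 4 of Drosophila melanogaster. Regions were taken from lists of significant enrichment deposited for ChIP-seq of adult heads. A region belonged to an arm end if its midpoint lay in the last 2 Mb of the arm, that is at or beyond position 21011545 on 2L, 22543558 on 3L or 20422828 on X (FlyBase release 5, as are all positions here), and every region on chromosome 4 was taken. The rule gave 158 of the 9467 regions of ChIP replicate 1 (1.67%), 153 of the 9142 regions of ChIP replicate 2 (1.67%) and 395 of the 16244 regions of a combined list deposited for the series (2.43%). They were 42, 37 and 90 regions in the 2L end, 47, 50 and 76 in the 3L end, 54, 46 and 182 in the X end, and 15, 20 and 47 on chromosome 4, in replicate 1, replicate 2 and the combined list. The ends of 2R and 3R were not part of the set.

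The flies were Oregon-R, a wild-type laboratory strain, at a stage labelled mixed adult, raised in population cages; heads were sieved from whole adults and their nuclei crosslinked with formaldehyde. The 4 samples comprised 2 ChIP samples, each with an input of unenriched chromatin as its background, and no treatment or mutation separated the groups. The lists give no read numbers, so the depth behind each region is unknown. They also do not say where reads could be aligned, so unmarked means here only without a listed region. Covered shares use the full length of a stretch. Whether the replicates are separate collections of flies is not stated in the labels, and their spread may therefore be technical only. Heads hold many cell types, and a region called in few cells cannot be told apart here from a weaker one called in all.

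Acetylation of H3 lysine 23, which in Drosophila is laid down by the MYST-family acetyltransferase Enok, is found in open, transcribed chromatin. The sequence around the centromeres is of the opposite kind: it is rich in transposons and other repeats, carries methylated H3 lysine 9 and is bound by the heterochromatin protein HP1a. Chromosome 4 is a small chromosome in which genes and repeats are interspersed and much of the sequence has these heterochromatin marks, and its active genes are bound by POF, a protein that targets this chromosome. Active genes are known within heterochromatin too, among them light on 2L, which depends on its heterochromatic setting. No genes are assigned to the regions here, because the gene table at hand is of genome release 6, whereas positions are of release 5. For the same reason no sequence is shown.

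All 4 stretches were sparsely marked, and each in its own pattern. The 2L end thinned out unevenly, with long unmarked gaps, and the 3L end was densely marked up to a sharp edge. The X end was marked by scattered regions up to about 154 kb from its last base in the replicates. Chromosome 4 carried, in the replicates, 5 small clusters in otherwise unmarked sequence. The 2L end was 4.76% covered in replicate 1 and 4.83% in replicate 2, or 4.80% ± 0.0461 (SD, n = 2 here and below). The 3L end was 6.64% and 7.42% covered (7.03% ± 0.554), and the X end 5.46% and 4.44% (4.95% ± 0.719). Chromosome 4 was 2.28% and 2.54% covered (2.41% ± 0.182). The values of the 2L end lay between those of the X end, so these neighbours in the order do not differ beyond their spread, whereas the 3L end lay above and chromosome 4 below the others in both replicates.

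**Figure D1:**
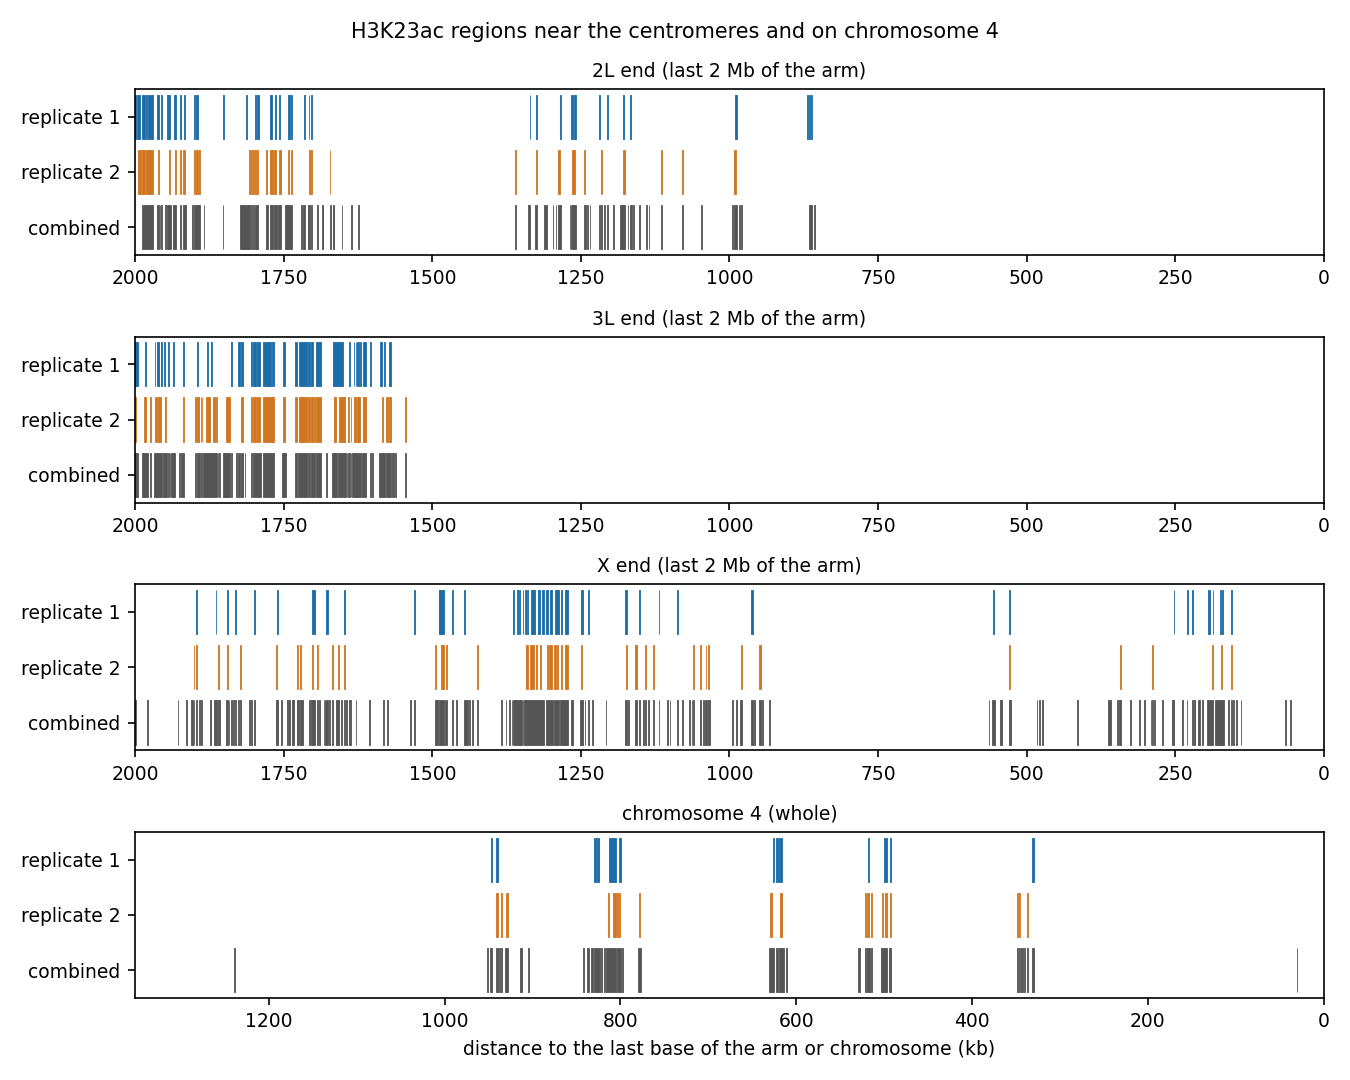
Position of every region in the 4 stretches, drawn to scale with the distance to the last base of the arm or chromosome (kb) on the horizontal axis and 1 row for each list. The 3L end is dense and then empty for 1544 kb in the combined list, whereas regions of the X end reach to about 154 kb from the end in both replicates, and chromosome 4 shows 5 clusters.

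On 2L the marked sequence ended at least 855 kb before the end of the arm in the 3 lists. The first window of 100 kb, counted from the start of the stretch, was 37.5% covered in replicate 1 and 36.8% in replicate 2. The second was 7.97% and 11.3% covered and the third 25.0% and 24.0%. In the fourth window the value was 0% in replicate 1 and 1.42% in replicate 2, and the fifth and sixth were at 0% in all 3 lists. The outer block stopped at 21309597 in replicate 1 and at 21340080 in replicate 2.

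The longest unmarked gap of the 2L end lay between this block and the next regions. It ran from 21340081 to 21651344, 311264 bp without a region of either replicate, of which combined regions covered 8384 bp. Beyond it the mark returned at a lower density. Windows 7, 8 and 9 were 2.89%, 10.5% and 3.73% covered in replicate 1 and 2.81%, 12.4% and 4.10% in replicate 2. In the outer 1 Mb of the stretch there were 37 and 36 regions, and in the inner 1 Mb there were 5 and 1.

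The innermost regions of 2L stood alone. A pair of regions of replicate 1 and 1 region of replicate 2 lay between 22019896 and 22024242, 86210 bp from the nearest region before them and 117712 bp from the next. They had scores of 0.63 and 0.44 in replicate 1 and 0.56 in replicate 2, and the combined list had 1 region there, 22019196 to 22024224, 5029 bp wide with a score of 0.45. The score is the authors' value for a region and has no stated unit; it is compared only within a list. The last marks, 3 regions from 22141955 to 22150455, were found in replicate 1 only, and the combined list had 3 regions over the same stretch. One of them, 22141955 to 22143339 with a score of 0.65, was the only region in the 4 stretches of either replicate list that overlapped no combined region. The last region ended at 22150455 in replicate 1, at 22021863 in replicate 2 and at 22156228 in the combined list. The final 861 kb, 990 kb and 855 kb of the arm thus held no region in these lists.

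The regions of the 2L end that ranked first by width or score all lay in both replicates. The widest combined region was 21023282 to 21042078, 18797 bp wide, and scored 0.62; 3 regions of replicate 1 covered 82.6% of it and 2 of replicate 2 covered 94.4%. The highest score, 0.67, belonged to 21048502 to 21051434, only 2933 bp wide and covered over 88.7% and 71.3%. A score of 0.61 was found at 21252530 to 21256590, in the third window. Beyond the long gap the widest was 21745734 to 21753720, 7987 bp with a score of 0.50, covered over 70.6% and 76.4%. The others among the 5 widest and 5 highest were 4 regions of 4085 to 7027 bp with scores from 0.44 to 0.54, and the isolated region at 22019196 described above.

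The 3L end was the most regularly marked of the 4 stretches up to its edge. The first 5 windows were 19.9%, 16.5%, 50.1%, 40.1% and 6.10% covered in replicate 1. In replicate 2 they were 17.8%, 31.3%, 53.6%, 37.4% and 8.26% covered. The other 15 windows held no region in any of the 3 lists. From the start of the stretch to the last region, a span of 430 kb in replicate 1 and 456 kb in replicate 2, coverage was 30.9% and 32.6%, above the 21.7% and 21.2% of the rest of arm 3L; the span ends at the last region by construction.

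The edge on 3L was placed nearly alike by the 3 lists. The last region ended at 22973292 in replicate 1 and at 22999374 in replicate 2, which are 26.1 kb apart. The last combined region, 22997540 to 22999376, coincided with that of replicate 2 and was 1837 bp wide with a score of 0.36. Beyond the last replicate region, 1544183 bp to the end of the arm had none. Within the marked span no gap free of both replicates was longer than 23935 bp, the one just before the last region of replicate 2.

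Wide regions of 3L lay mostly in windows 3 and 4. The widest combined region, 22759226 to 22777858, was 18633 bp wide, also had the highest score of the stretch, 0.67, and was covered over 88.8% by 4 regions in replicate 1 and 94.6% by 3 in replicate 2. Next in width were 22742302 to 22755086 (12785 bp, score 0.56), 22884132 to 22894606 (10475 bp, 0.63) and 22818346 to 22828654 (10309 bp, 0.55), each covered over at least 72.4% in both replicates. The fifth, 22659262 to 22669538 (10277 bp, 0.46), was covered over 21.2% in replicate 1 and 63.3% in replicate 2. This was in the window where the replicates lay farthest apart, by 14.8 percentage points. The remaining high scores were 0.64 at 22721008 to 22725296, 0.59 at 22791430 to 22796036 and 0.58 at 22877572 to 22883622, found in both replicates.

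The X end had no single edge. Regions of the replicates were scattered over windows 1 to 11 and then absent from 3 windows. From window 15 to 19 they were present again, except in window 16. Coverage was highest in windows 7 and 8, at 26.6% and 20.4% in replicate 1 and 15.8% and 15.4% in replicate 2. This block, from 21058723 to 21151432, held 20 regions of replicate 1 and 10 of replicate 2 in 92.7 kb, and the combined list covered 89.1% of it. Elsewhere no window was more than 12.4% covered in either replicate.

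The longest unmarked gap of the X end lay inside the stretch, while the final 154248 bp were also free of both replicates. The gap ran from 21475169 to 21865806, 390638 bp free of both replicates, of which combined regions covered 5371 bp. A second gap of 185205 bp, 21894884 to 22080088, was free of both replicates but held combined regions. Between these gaps both replicates called nearly the same region, which ran from 21892934 to 21894817 in replicate 1 and, in replicate 2, from 21893124 to 21894883, with low scores for this stretch of 0.53 and 0.46. The last region ended at 22268336 in replicate 1 and 22268579 in replicate 2, 243 bp apart and 154 kb before the end of the arm, with scores of 0.76 and 0.69. The combined list went on with 5 more regions, the last of them 22366336 to 22367678, 55.1 kb before the end.

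In the X end, the 5 widest and the 5 highest-scoring combined regions had 2 in common. The 5 widest combined regions, of 8459 to 13367 bp, were in both replicates, and 4 of them lay in the dense block: 21085520 to 21098886 (score 0.56), 21126898 to 21136626 (0.60), 21117136 to 21125718 (0.53) and 21143046 to 21151504 (0.63). The fifth was 20933466 to 20942890, 9425 bp wide with a score of 0.51. Of the 5 highest scores, 3 belonged to regions of 1003 to 1193 bp that overlapped neither replicate: 0.73 at 20696894 to 20698022, 0.68 at 22078674 to 22079676 and 0.61 at 21355280 to 21356472. The other 2 were the regions at 21143046 and 21126898.

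On chromosome 4 the mark was confined, in the replicate lists, to 5 clusters between 405058 and 1022363. Replicate 1 had 15 regions and replicate 2 had 20, and no region lay in the first 405 kb or the last 329 kb in either replicate. Of the 13 full windows of 100 kb, 5 were marked, the same 5 in both replicates, and 8 held none. Coverage of the marked windows ranged from 2.47% to 13.2% in replicate 1 and from 4.56% to 10.1% in replicate 2.

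**Figure D2:**
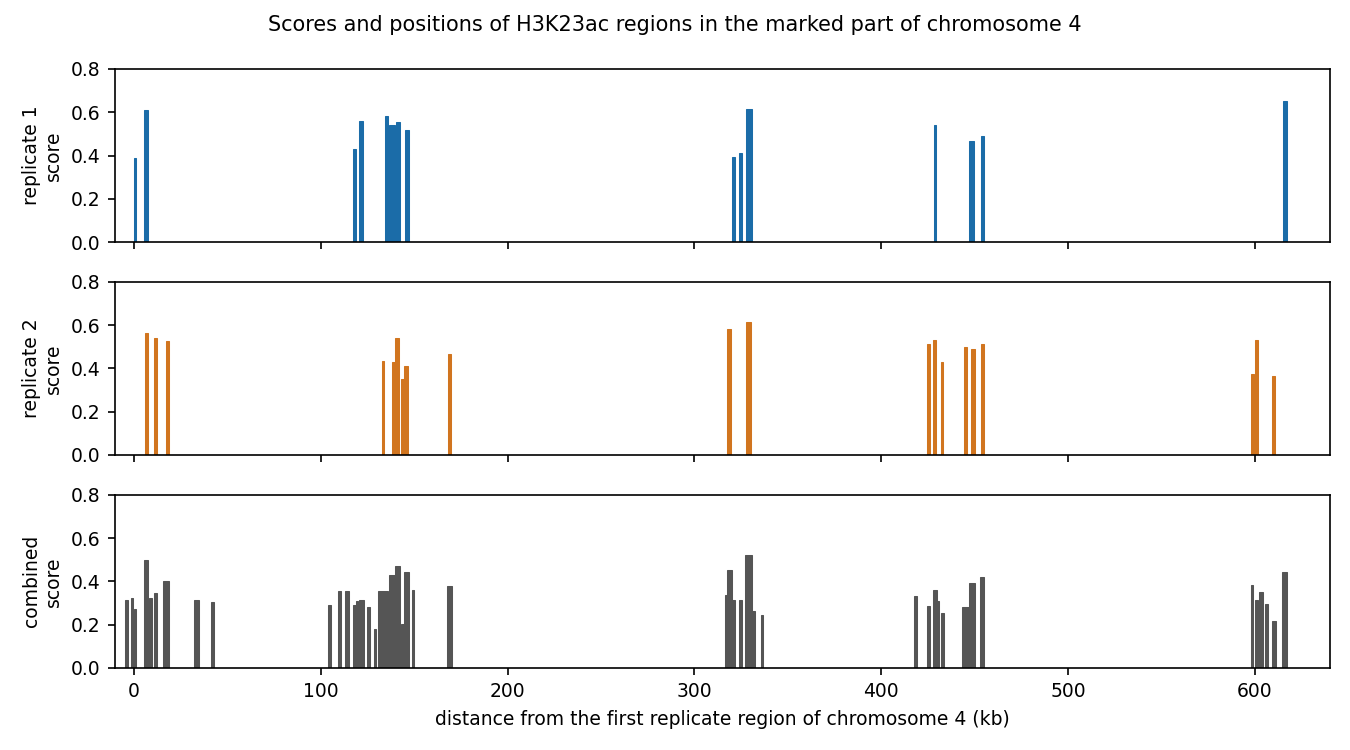
Score (no stated unit, vertical axis) of each region in the marked part of chromosome 4 against the distance in kb from the first replicate region, with 1 panel for each list and bars as wide as the regions. The 5 clusters were drawn from the regions of both replicates together, so each region lies in one by construction. In replicate 1, 8 of the 15 regions overlap one of replicate 2, and 8 of the 20 of replicate 2 overlap one of replicate 1. Outside the range shown lie 2 combined regions.

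The first cluster, 405058 to 423922, held 2 regions of replicate 1 and 3 of replicate 2. The second had 6 regions of replicate 1 and 5 of replicate 2 between 522346 and 552229 and 1 more of replicate 2 at 573097 to 574654. In its 29.9 kb core 44.0% was covered in replicate 1 and 28.7% in replicate 2. The next, 722561 to 735639, held 3 and 2 regions, which covered 47.8% and 35.9% of its 13.1 kb, and the one after it, 829618 to 859964, held 3 and 6. The fifth, 1003002 to 1022363, held 1 region of replicate 1 and 3 of replicate 2, with no base in common. The clusters were 93978 to 147906 bp apart, and the region at 573097 was kept with the second across 20867 bp.

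The replicates agreed on 8 places on chromosome 4. In the first cluster they met at 410406 to 412526 against 410899 to 412888 (replicate 1 first, as below), scoring 0.61 and 0.56. The second cluster had 3 such places: 541519 to 544658 against 543040 to 544600 (0.54 and 0.43), 545158 to 547336 against 544820 to 546868 (0.56 and 0.54), and 550036 to 552229 against 549842 to 551714 (0.52 and 0.41). In the third, 732528 to 735639 met 732910 to 735447, and both scored 0.62. The fourth cluster had 833143 to 834472 against 832491 to 834391 (0.54 and 0.53), 852189 to 854934 against 853178 to 854943 (0.47 and 0.49), and 858485 to 859909 against 858183 to 859964 (0.49 and 0.51). These regions were 1330 to 3140 bp wide. Their median start offset was 437.5 bp and their median end offset 136.5 bp.

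The third cluster held the highest combined score of the chromosome. Its region 731984 to 735684 scored 0.52, and 410374 to 412888 in the first cluster scored 0.50. The combined list added regions inside or beside the clusters, and 2 single regions far from them that neither replicate had: 112680 to 113692 (score 0.31) and 1320910 to 1321910 (0.39), 1013 and 1001 bp wide. No region of chromosome 4 was wide: the widest were 3140 bp in replicate 1, 2538 bp in replicate 2 and 5771 bp in the combined list.

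**Figure D3:**
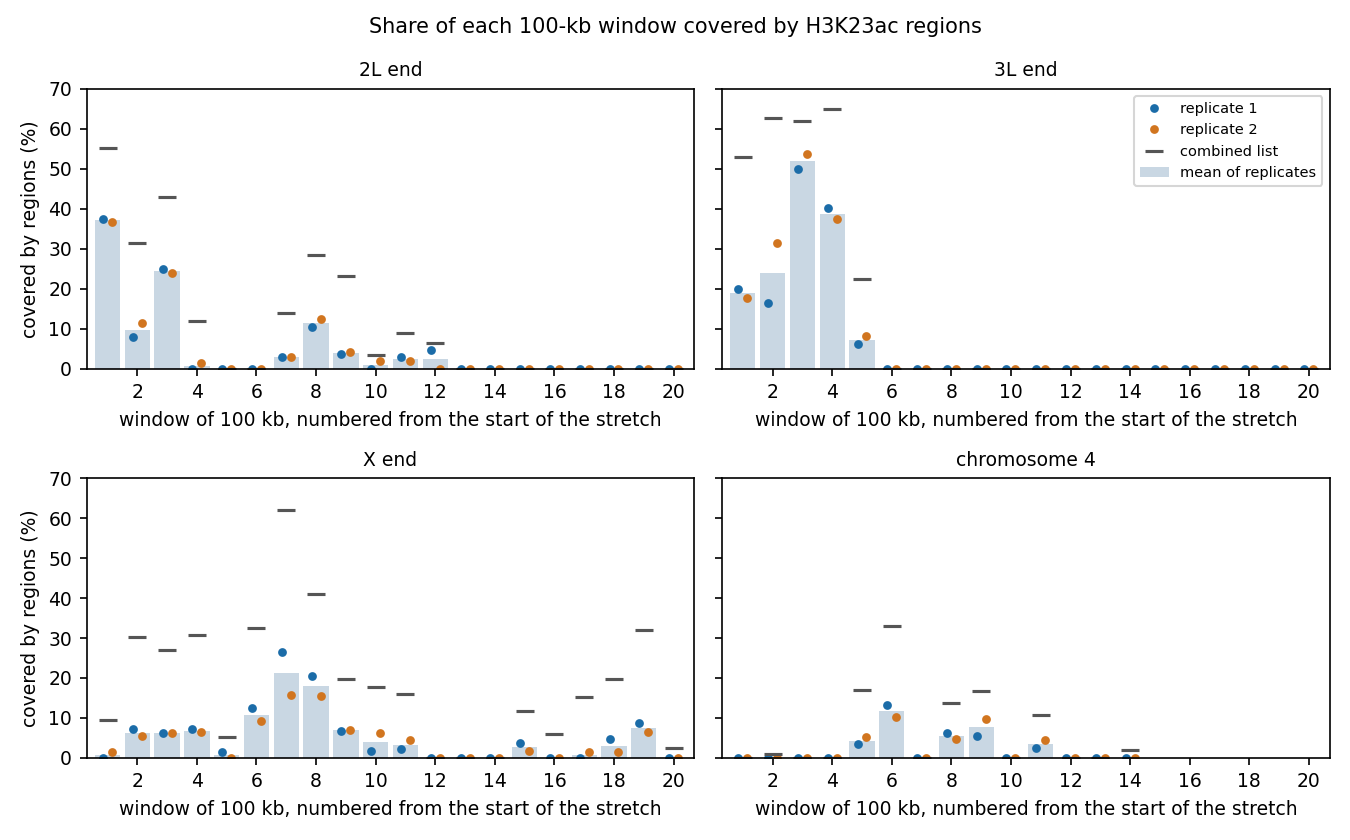
Share of each 100-kb window covered by regions (%) in replicates 1 and 2 (dots), their mean (bars) and the combined list (dashes), against the window's number from the start of the stretch; window 14 of chromosome 4 is shorter. The 2L end falls from 37.5% and 36.8% to 0% by its last 8 windows, and the 3L end from a peak of 50.1% and 53.6% in window 3 to 0% from window 6 on.

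Each stretch was less covered than its reference in both replicates. The reference was the rest of the same arm, and for chromosome 4 the pooled major autosomal arms (2L, 2R, 3L, 3R). The rest of 2L was 19.7% ± 0.344 covered, the rest of 3L 21.5% ± 0.372, the rest of X 12.8% ± 1.19 and the 4 autosomal arms 22.3% ± 0.129. The ratio of a stretch to its reference was 0.243 ± 0.0019 for the 2L end, 0.328 ± 0.0315 for the 3L end, 0.384 ± 0.0203 for the X end and 0.108 ± 0.0088 for chromosome 4. Each difference exceeded the spread between replicates. No test is given, because with 2 replicates an exact two-sided sign permutation test has a smallest p of 0.5.

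The lower coverage came with fewer regions and with whole windows that had none. There were 19.8 ± 1.77 regions per Mb in the 2L end, 24.3 ± 1.06 in the 3L end, 25.0 ± 2.83 in the X end and 12.9 ± 2.62 on chromosome 4, against 77.6 ± 0.303, 80.9 ± 2.01, 58.6 ± 4.81 and 83.2 ± 1.34 in the references. Of the full 100-kb windows, 10 of 20 in the 2L end were free of both replicates, 15 of 20 in the 3L end, 5 of 20 in the X end and 8 of 13 on chromosome 4. In the references these were 7 of 210, 4 of 225, 1 of 204 and 56 of 965 windows. The combined list left 10, 15, 3 and 7 windows of the stretches unmarked.

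Between marked places, spacing differed among the stretches. Neighbouring regions were a median of 6125 bp and 7824.5 bp apart in the 2L end in replicates 1 and 2, against 3338.5 bp and 3458 bp on the rest of the arm. For X the medians were 8043 bp and 12967 bp in the end and 5654 bp and 5469.5 bp on the rest. The 3L end had 3473.5 bp and 3092 bp, and the rest of 3L 3493 bp and 3411 bp, so the spacing in its marked span was close to that of the arm. On chromosome 4 the gaps of 3796 bp and 3925 bp were those within clusters.

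Widths moved in different directions. In the 3L end the median widths of 2182 bp (replicate 1) and 2334.5 bp (replicate 2) were above the 1918 bp and 1937 bp of the rest of the arm. Regions of the X end had medians of 1655.5 bp and 1539.5 bp, below the 1770 bp and 1765 bp found on the rest of X. In both cases the replicates gave the same sign, and the mean differences of 331 bp ± 94.4 and -170 bp ± 78.5 exceeded their SD. In the 2L end (1735 bp and 1968 bp) and on chromosome 4 (2100 bp and 1606.5 bp) one replicate lay above its reference and the other below.

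Median scores lay below the references in the 2L end, in the X end and on chromosome 4. In the 2L end the median score was 0.55 in replicate 1 and 0.54 in replicate 2, against 0.56 in both on the rest of the arm, a difference of -0.015 ± 0.0082. The X end had medians of 0.68 and 0.66 against 0.71 and 0.70 (difference -0.034 ± 0.011). Chromosome 4 had 0.54 and 0.51 against 0.57 on the autosomal arms in both (difference -0.045 ± 0.023). These were lower in both replicates and by more than the SD. In the 3L end the medians were 0.61 and 0.56 against 0.56 in both, and the difference of 0.024 ± 0.033 was within the spread. For the X end the mean difference was 0.011 when only the last 1 Mb was used, which has 11 and 8 regions; the sign turned in replicate 1 (0.035) and not in replicate 2 (-0.013).

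**Figure D4:**
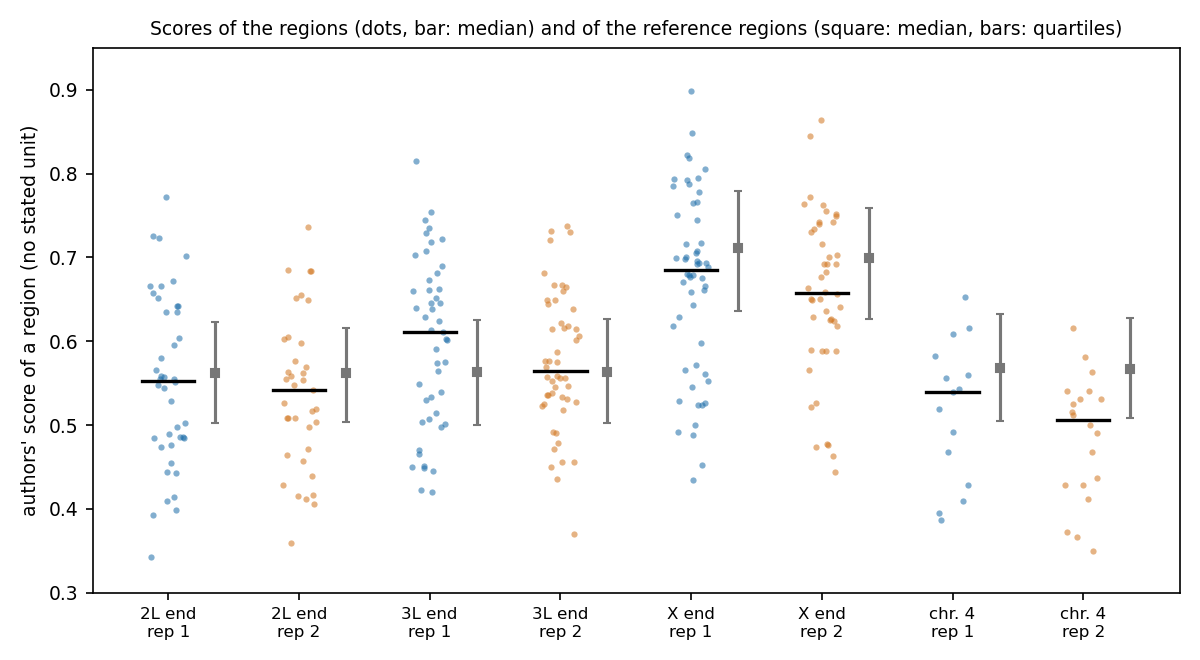
Score of each region (vertical axis, no stated unit) in the 4 stretches for replicates 1 and 2 (dots; black bar, median), beside the median and quartiles of the reference regions (grey square with bars). The X end sits highest, with medians of 0.68 and 0.66, yet below the rest of X, and chromosome 4 lowest, with medians of 0.54 and 0.51.

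Ranked within the whole list, few regions of chromosome 4 and most of the X end, as of the rest of X, were above the median. On chromosome 4, 3 of 15 regions in replicate 1 and 2 of 20 in replicate 2 scored above the median of their list, and 0 in either reached its upper 25%. The autosomal arms had 44.1% and 44.4% above the median, and 1451 of 8131 and 1490 of 7948 regions in the upper 25%. The X end had 40 of 54 and 38 of 46 above the list median, and 36 and 27 in the upper 25%. On the rest of X the shares above the median were 87.3% and 88.8%, higher than the 74.1% and 82.6% of its end. In the upper 25% the rest of X had 879 of 1266 and 768 of 1127 regions. In the 2L end 15 of 42 and 10 of 37 were above the median, and for the 3L end 27 of 47 and 21 of 50. The rest of 2L had 41.0% and 42.1% above it, and the rest of 3L 41.5% and 43.2%. Within the stretches wider regions tended to score higher, with Spearman coefficients across regions of 0.56 and 0.61 in the 2L end, 0.56 and 0.64 in the 3L end, and 0.60 and 0.52 on chromosome 4. They were 0.43 and 0.14 in the X end. The rest of X had 0.45 and 0.48, and the other references 0.54 to 0.60. Regions of a list share a library and are not independent replicates.

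Most regions of the 2L and 3L ends, and fewer than 50% of those of the X end and chromosome 4, overlapped a region of the other replicate when both lists were pooled. An overlap of at least 1 bp with the other replicate was found for 26 of 42 regions of replicate 1 and 25 of 37 of replicate 2 in the 2L end, and for 34 of 47 and 31 of 50 in the 3L end. It was 25 of 54 and 22 of 46 in the X end, and on chromosome 4 8 of 15 and 8 of 20. Pooled over both lists, these were 64.6%, 67.0%, 47.0% and 45.7%. The references had 68.3%, 68.8%, 56.1% and 70.6%. The covered shares differ between stretches and references too, and their part in these values was not tested.

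Measured by length, the replicates shared 62.0 kb of 130 kb covered in either in the 2L end, a Jaccard index (shared over total length) of 0.478, and 93.9 kb of 187 kb in the 3L end, an index of 0.501. On the rest of these arms it was 0.447 and 0.465. In the X end 40.7 kb of 157 kb were shared, an index of 0.259 against 0.308 on the rest of X. On chromosome 4 13.5 kb of 51.5 kb were shared, an index of 0.263 against 0.477 on the autosomal arms. The 2L and 3L ends thus overlapped no less in length than their arms. Their low cover includes windows without any region. Up to its last region the 3L end was 30.9% and 32.6% covered, against 21.7% and 21.2% on the rest of 3L. The part of local cover in the overlap was not tested.

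Where the replicates did overlap, the median distances between their edges were shorter than in the references. The median distance between starts was 367 bp over 26 pairs in the 2L end, 610 bp over 37 pairs in the 3L end, 416 bp over 26 pairs in the X end and 437.5 bp over 8 pairs on chromosome 4. In the references it was 658 bp to 755.5 bp. Ends differed by medians of 298 bp, 367 bp, 333 bp and 136.5 bp, against 670.5 bp to 745 bp. A region that met several partners counts once in each pair. The median overlap was 74.3%, 68.7%, 51.7% and 76.6% of the wider region of a pair. The references had 55.6%, 54.0%, 51.4% and 54.2%, so the X end was like the rest of X. An overlap of at least 50% of both regions was counted over all pooled regions, including those without a partner. Its share was 58.2% in the 2L end and 47.4% in the 3L end, against 44.2% and 44.0% on the rest of these arms. It was 26.0% in the X end and 40.0% on chromosome 4, against references of 32.6% and 45.2%. Of the regions that met a partner at all, it was reached by 46 of 51 in the 2L end and 46 of 65 in the 3L end. It was reached by 26 of 47 in the X end and 14 of 16 on chromosome 4. In the references these were 1440 of 2227, 1604 of 2508, 780 of 1343 and 7274 of 11355.

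Regions found in a single replicate were narrower than shared ones in all 4 stretches and both replicates, as they were in the references. Medians in replicate 1 were 1515 bp (single) against 2434.5 bp (shared) in the 2L end, 1627 bp against 2758.5 bp in the 3L end, 1498 bp against 1779 bp in the X end and 1796 bp against 2186.5 bp on chromosome 4. Wider regions also meet another list more easily. Of the single regions of the 3L end, 11 of 13 and 15 of 19 (84.6% and 78.9%) were within 5 kb of a region of the other replicate, against 69.7% and 70.4% on the rest of 3L. On chromosome 4 it was 5 of 7 and 8 of 12 (71.4% and 66.7%), close to the 69.0% and 70.4% of the autosomal arms. Of the single regions of the X end 11 of 29 and 8 of 24 (37.9% and 33.3%) were that near, against 53.5% and 64.9% on the rest of X, and 9 and 8 were more than 20 kb away. In the 2L end 8 of 16 and 6 of 12 (50.0% in each) were within 5 kb, against 69.0% and 66.5% on the rest of 2L, and 4 in each replicate more than 20 kb away. None of these differences was tested.

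The combined list added most in the X end and next most on chromosome 4. It covered 3.47 and 4.27 times the length of replicates 1 and 2 there, against 2.64 and 3.01 times on the rest of X. On chromosome 4 the factors were 3.03 and 2.72, against 2.06 and 2.07 on the autosomal arms. They were 2.38 and 2.35 in the 2L end, against 2.26 and 2.20 on the rest of 2L. Only the 3L end lay below its reference, with 2.00 and 1.78 against 2.12 and 2.17. Of the 182 combined regions of the X end 19 overlapped both replicates, 10.4% (exact Clopper-Pearson 95% interval 6.40 to 15.8), and 112 overlapped neither, 61.5% (54.1 to 68.6). On the rest of X 18.7% overlapped both and 51.1% neither. The intervals cover counting over regions only, and the combined list is not independent of the replicates.

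In the other stretches the combined regions were split otherwise. In the 3L end 26 of 76 overlapped both replicates, 34.2% (23.7 to 46.0), and 23 neither, 30.3% (20.2 to 41.9), against 27.9% and 45.2% on the rest of 3L. In the 2L end 20 of 90 overlapped both, 22.2% (14.1 to 32.2), and 45 neither, 50.0% (39.3 to 60.7), against 27.4% and 46.4%. On chromosome 4 9 of 47 overlapped both, 19.1% (9.15 to 33.3), and 21 neither, 44.7% (30.2 to 59.9), against 30.2% and 42.7% on the autosomal arms. Regions in both were wider than those in neither, with medians of 3740 bp in the 2L end, 5129 bp in the 3L end, 4251 bp in the X end and 2643 bp on chromosome 4. Their references had 4970 bp, 4747 bp, 4405 bp and 4985 bp, so only those of the 3L end were above their reference. Those in neither had medians of 1195 bp, 1527 bp, 1364 bp and 1435 bp.

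**Figure D5:**
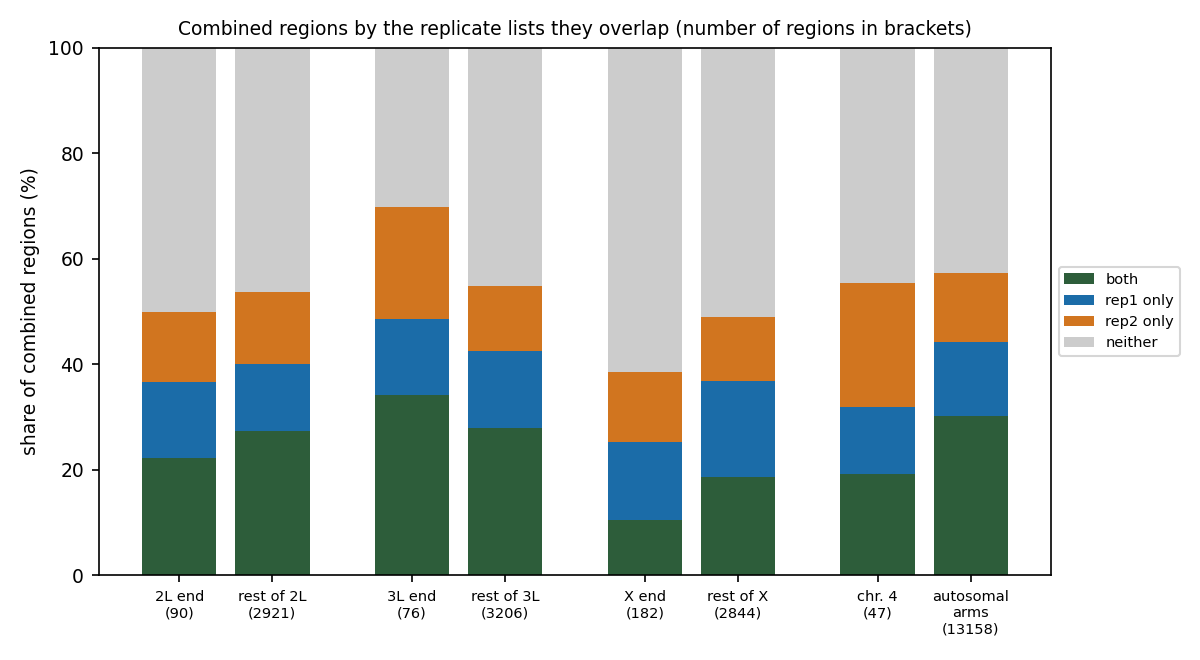
Share of combined regions (%, vertical axis) that overlap both replicate lists, replicate 1 only, replicate 2 only or neither, for each stretch and its reference, with the number of regions in brackets. The X end has the highest share in neither, 61.5%, and the 3L end the lowest, 30.3%.

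Marked islands were defined as runs of replicate regions with gaps under 20 kb that had no other replicate region within 50 kb on either side. There were 8: 2 in the 2L end, 0 in the 3L end, 2 in the X end and 4 on chromosome 4. Of these, 4 held bases called in both replicates: 22019896 to 22024242 on 2L, and the clusters of chromosome 4 that start at 405058, 722561 and 829618, of 18.9 kb, 13.1 kb and 30.3 kb. The second cluster of chromosome 4 missed the definition because of the single region of replicate 2 that lay 20867 bp beyond its core.

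The other islands rested on one replicate or on regions that did not meet. On 2L, 22141955 to 22150455 held 3 regions of replicate 1. On X, 21442874 to 21475168 held 1 region of replicate 1 (score 0.82) and 2 of replicate 2 with no shared base, and 22080089 to 22081635 was a single region of replicate 2 with a score of 0.74. On chromosome 4 the fifth cluster was of this kind, with the region of replicate 1, 1019897 to 1022363, scoring 0.65, the highest of that replicate on the chromosome. All 8 islands overlapped at least 1 combined region.

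At the borders set by the rule, unmarked sequence lay between the last region outside and the first inside in each replicate. These gaps were shorter on 2L and 3L than on X. On 2L the first region inside was 21011966 to 21013464 (score 0.39) in replicate 1 and 21015546 to 21020726 (0.57) in replicate 2, and the last outside were 21007352 to 21011254 (0.61) and 21008023 to 21012652 (0.60). On 3L the first inside were 22542195 to 22545521 (0.61) and 22542054 to 22545301 (0.56), and the last outside 22527145 to 22532817 (0.69) and 22534740 to 22536217 (0.41). On X they were 20525365 to 20527130 (0.72) and 20521217 to 20522558 (0.73) inside, and 20370579 to 20372031 (0.63) and 20376493 to 20379341 (0.75) outside.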

How the data were processed

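Regions were read from 3 deposited lists, 1 for each ChIP replicate and 1 combined list for the series. Input samples were not analysed here. Positions are 1-based on FlyBase release 5, per the file headers, which also give arm lengths. Bowtie 0.12.7, a short-read aligner, is named in the submitters' processing notes; for the peak caller, threshold, filters and the combining of replicates, nothing is given in the sources used here. The deposited score of a region has no stated unit, and the authors' normalization of it is not given. Read depth is unknown, so no interval for read counting was computed.

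Regions were assigned by midpoint. Covered shares clip regions to the stretch or to windows of 100 kb, counted from its first base. Overlap meant at least 1 bp. Regions named were those in both replicates on chromosome 4, the 5 widest and 5 highest-scoring combined regions of each arm end, last regions, longest gaps and islands; the other regions outside these are named as borders or were chosen after their values were seen. The stretches, rules and alternatives were chosen with earlier results of these data known. No gene is named from release 6, and coordinates were not converted. Python 3.11.15, pandas 2.3.3, NumPy 2.4.6 and SciPy 1.17.1 were used, and the interval counts were tested on simulated data, 20 pairs of lists. Alternatives were a score above the list median, the combined list, the last 1 Mb, an overlap of 50%, regions under 2000 bp, and leaving out a replicate.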

Additional observations from a re-analysis of the deposited data

Results flagged for a closer look

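The combined list held regions on 2 of the heterochromatin scaffolds, sequence that no comparison above uses. XHet, 204 kb long, had 3 combined regions, 55906 to 57106, 68138 to 69484 and 71066 to 72320, with scores of 0.45, 0.36 and 0.47, which covered 1.86% of it. 3LHet, 2555 kb long, had 1, 215986 to 217108, with a score of 0.45. Neither replicate had a region on either scaffold, and 2LHet, 2RHet, 3RHet and YHet had 0 in each list. They were not set against any control sample.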

How the results depend on the processing

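With only scores above the list median, the covered share fell from 4.80% to 2.09% in the 2L end, 7.03% to 4.54% in the 3L end, 4.95% to 4.11% in the X end and 2.41% to 0.459% on chromosome 4. In the combined list it was 11.3%, 13.2%, 19.0% and 6.90%. In the last 1 Mb it was 0.481% on 2L, 0% on 3L and 1.75% on X, as the mark thins out. With 1 replicate left out it ranged from 4.76% to 4.83%, 6.64% to 7.42%, 4.44% to 5.46% and 2.28% to 2.54%.

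The pooled share of overlapping regions became 40.0% in the 2L end and 52.1% in the 3L end above the list median, and 47.4% in the 3L end and 26.0% in the X end with an overlap of 50% of both regions. In the last 1 Mb it was 33.3% on 2L, from 5 and 1 regions, and 31.6% on X, from 11 and 8. Combined regions in both replicates were 55.2% in the 2L end, 68.8% in the 3L end and 75.0% on chromosome 4 above the list median. These shares rest on 29, 32 and 8 combined regions. They were 23.7% in the 3L end and 5.49% in the X end where each replicate had to cover at least 50%. With a single replicate required, they were 35.6% to 36.7%, 48.7% to 55.3%, 23.6% to 25.3% and 31.9% to 42.6%, since fewer lists have to overlap.

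The score difference of the 2L end was -0.026 for regions under 2000 bp, -0.029 in the combined list and -0.037 in the last 1 Mb (-0.076 in replicate 1 and 0.0022 in replicate 2, which has 1 region there). For the X end it was -0.011, -0.013 and, with the sign of the mean turned by replicate 1, 0.011. For chromosome 4 it was -0.071 in the combined list. With 1 replicate left out it ranged from -0.021 to -0.0090, 0.0011 to 0.048, -0.042 to -0.027 and -0.061 to -0.028. Where no reason is given, the cause was not tested. The last 1 Mb of 3L holds no replicate region, so overlap and score could not be computed there. Unknown depth limits all of these values. Between ChIP and input, no paired analysis was possible because the input samples that share the replicate numbers were not analysed here. Ratios and differences between a stretch and its reference were taken within the same list.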
